A study of Mus musculus with 6 samples.

Results

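The genes described here encode parts of the inflammasomes, the cytosolic complexes with which macrophages sense bacterial products and cell damage. They were chosen as all probe sets that the array annotation gives a single symbol and whose symbol is Naip1, Naip2, Naip5, Naip6, Nlrc4, Nlrp3, Casp1, Il1b, Il18 or Pycard. This gave 10 of the 34945 single-symbol probe sets among 45101 on the array, and covered 8 of the 10 genes. Naip1 and Nlrc4 had no probe set under their symbol or gene identifier in that table, so they were not analysed here. All 10 probe sets passed the filter on low signals.

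The arrays held total RNA of resident peritoneal macrophages, taken by lavage and sorted as CD11b-high cells with low or no MHCII. The Gata6-KO group was 3 pools from mice with a floxed, conditionally deleted Gata6 gene, and the Gata6-WT group was 3 pools from wild type mice. Each pool came from 2 to 3 mice of 7 weeks, and the labels call the pools biological replicates. The Cre line is not given in the sources used here, and the labels' description speaks of myeloid cells. Gata6 encodes a transcription factor of these macrophages, and the comparison asks how its loss changes their expression. Signals are linear intensities, log2 differences are Gata6-KO minus Gata6-WT on log2(signal + 16), and adjusted p-values are from limma with Benjamini-Hochberg adjustment over all 27022 probe sets tested, with a threshold of 0.05.

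In the inflammasome pathway a sensor of the NLR family recognises its trigger, assembles with others and activates the protease caspase-1. NAIP5 and NAIP6 bind bacterial flagellin, NAIP2 binds the inner rod and NAIP1 the needle of type III secretion systems, and each then recruits NLRC4, whereas NLRP3 responds to potassium efflux and other signs of cell stress. NLRP3 needs the adaptor ASC, encoded by Pycard, to reach caspase-1, which matures the cytokines IL-1 beta and IL-18 and opens gasdermin D pores.

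The Naip genes lie next to each other, and the start regions of Naip2 and Naip5 are shown because they had the longest alignment of any pair of Naip windows. RefSeq promoter windows of GRCm38.p6, from 250 bases before to 50 after the annotated start, were found for all 10 genes, with a second window for Nlrp3. Over the part before the start, Naip2 and Naip5 shared 85 aligned bases, of which 77 were identical and 8 differed (capitals mark the differing bases). Both stretches are on the minus strand, at chr13:100202123-100202207 for Naip2 and chr13:100247344-100247428 for Naip5.
Naip2: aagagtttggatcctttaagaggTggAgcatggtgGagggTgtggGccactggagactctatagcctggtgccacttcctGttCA
Naip5: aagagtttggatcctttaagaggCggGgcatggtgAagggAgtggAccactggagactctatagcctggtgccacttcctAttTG
The whole local alignment of the windows reached past the start and held 123 identical bases in 134 (91.8%). Naip1 aligned with Naip2 over 83 columns, 62 of them identical. The window of Naip6, which fell as well, had no local alignment longer than 30 columns with any of the other 3.

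Near the start, the windows of 4 of the 10 genes held AGGAAGTG or its reverse complement, a sequence with the GGAA core that ETS factors such as PU.1 bind. It was looked for after the sequences had been read, and it occurs in 4.1% of the 32851 promoter windows in the RefSeq table. It is printed below in capitals, as its reverse complement, on the minus strand in all 4. It starts 13 bases before the start of Naip2 (chr13:100202123-100202155), 20 before that of Naip5 (chr13:100247339-100247376), 11 before that of Nlrc4 (chr17:74459109-74459139) and 45 before that of Pycard (chr7:127993895-127993932). The matches of Naip2 and Naip5 lie in the aligned stretch that these genes share, so they are not independent occurrences.
Naip2: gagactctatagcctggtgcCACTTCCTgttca
Naip5: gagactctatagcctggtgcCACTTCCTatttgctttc
Nlrc4: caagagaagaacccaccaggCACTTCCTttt
Pycard: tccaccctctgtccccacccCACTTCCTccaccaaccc
The core GATA, read on both strands, was found in the windows of 6 genes, Naip1, Naip5, Naip6, Nlrp3, Il18 and Il1b, and in 57.9% of all windows. The tandem GAAA element of interferon response genes was in none of the 11 windows and in 3.4% of all, and TATAAA was in 4 of the 11 and 13.6% of all. Matches of different motifs did not overlap in these windows, and a match is a description of the letters, not of binding.

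Pairs of arrays from the same genotype had r of 0.964 to 0.972 across tested probe sets, and pairs that crossed genotypes 0.93 to 0.951. Of the 3 Gata6 probe sets, 2 fell in Gata6-KO (log2 -1.15 ± 0.19 SE and -0.88 ± 0.17, limma adjusted p = 0.0043 and 0.011) and 1 did not pass (log2 -0.01 ± 0.21, adjusted p = 0.98). Their position relative to the deleted part is not known here. At its brightest probe set Xist had signals of 102 and 113 in the replicates numbered 1 and 11158 to 13749 in the other 4 arrays, so each genotype held 1 male-type and 2 female-type pools. All 7 macrophage markers were tested, with 3 lower and 1 higher, where 7.46% of all genes tested were lower and 5.61% higher. Fcgr1 was 6.97-fold lower (limma adjusted p = 0.00019), with mean signals of 1110 for Gata6-WT and 148 for Gata6-KO. Adgre1 was 3.63-fold lower (adjusted p = 0.00027), with means of 43120 and 12150. Cd68 was 1.33-fold lower and Mertk 1.35-fold higher (both adjusted p = 0.031). Itgam (log2 0.24, adjusted p = 0.51), Lyz2 and Csf1r did not pass. Lyz2 (72540 ± 11570 in Gata6-WT, 71830 ± 6910 in Gata6-KO; SD, n = 3) and Csf1r were bright in both groups. In bulk samples fewer cells of a type and less RNA per cell cannot be told apart.

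The NAIP sensors and Nlrp3 were lower in Gata6-KO macrophages, while the adaptor, the protease and the cytokines did not pass the threshold. By gene, 4 of the 8 measured members fell and 0 rose, where 7.46% of the 12511 genes tested fell and 5.61% rose. By probe set the count was 4 of 10 lower and 0 higher, against 5.67% and 5.12% of all probe sets tested. The 4 falls became 2 when replicate 2 of either genotype was left out. The same 4 probe sets had all Gata6-KO arrays below all Gata6-WT arrays, where 16.3% of all probe sets had that arrangement. With a gene represented by its probe set of highest mean, the median log2 difference of the 8 genes was -0.39, and that of all genes tested was -0.04. The members were picked with earlier results of these data known, so no test of the set was made.

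**Figure D1:**
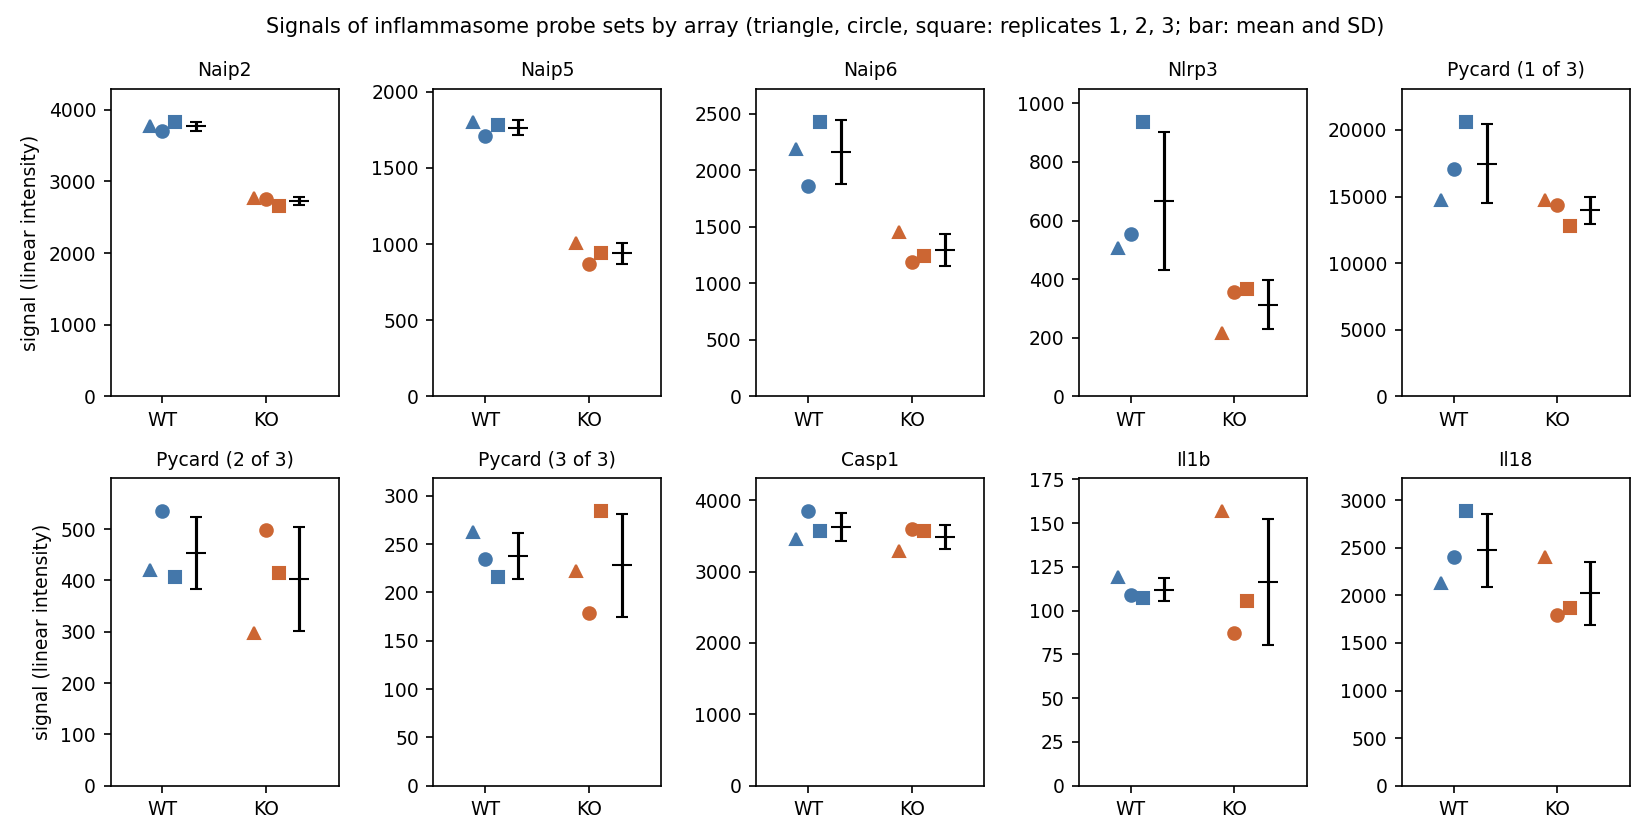
Signals (linear intensity, axes from 0) of the 10 probe sets in Gata6-WT (WT, blue) and Gata6-KO (KO, orange) arrays, with the mean and SD of 3 arrays as a black bar; Pycard panels run from its brightest to its dimmest probe set. The groups are apart for Naip2, Naip5, Naip6 and Nlrp3 and overlap in the other 6 panels.

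Naip5, a flagellin sensor, had the clearest change of the sensors. Its signal was 1801, 1707 and 1778 in Gata6-WT replicates 1, 2 and 3 and 1006, 867 and 943 in Gata6-KO replicates 1, 2 and 3. The spread inside each genotype was small beside the gap, and each Gata6-KO pool kept 49.2% to 57.1% of the wild type mean. The difference was 1.86-fold (95% interval 1.56 to 2.23; log2 -0.90 ± 0.12 SE, n = 3, limma adjusted p = 0.0011). The call was kept in all 19 other fits tried, with adjusted p from 0.00077 to 0.016.

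Naip6, the neighbouring flagellin sensor, was at 2192, 1861 and 2428 in Gata6-WT and at 1453, 1190 and 1246 in Gata6-KO replicates 1 to 3. The wild type pools varied more than for Naip5, and the highest Gata6-KO pool still lay below the lowest wild type pool. Naip6 fell 1.66-fold (interval 1.34 to 2.05; log2 -0.73 ± 0.14 SE, limma adjusted p = 0.0093). The call was lost in 1 of 19 other fits, that without a mean-variance trend (adjusted p = 0.055).

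Naip2, which senses the rod of type III secretion systems, had the smallest change of the 3 sensors measured. Its signal was 3770, 3706 and 3830 in Gata6-WT and 2767, 2758 and 2663 in Gata6-KO. Both groups were tight, with Gata6-KO pools at 70.7% to 73.4% of the wild type mean. The fall was 1.38-fold (interval 1.19 to 1.60; log2 -0.46 ± 0.10 SE, limma adjusted p = 0.015). It stayed lower in all 19 other fits but missed the threshold in 5, among them the fits that left out replicate 2 of Gata6-KO (adjusted p = 0.054) or of Gata6-WT (0.052).

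The Naip genes are near-copies of each other, and the probe sequences were not used here. Whether a Naip probe set also detects RNA of a sister gene was not tested, so the 3 values may not be independent. In the female-type pools the log2 differences were -0.93 for Naip5, -0.80 for Naip6 and -0.47 for Naip2, and in the male-type pools -0.83, -0.59 and -0.44, with 1 pool per genotype and no test. All 3 sensors were thus lower in both types of pool.

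Nlrp3, the sensor of cell stress, had the largest fold difference and the widest spread of the 4. Its signal was 505, 555 and 936 in Gata6-WT and 216, 357 and 366 in Gata6-KO replicates 1, 2 and 3. Gata6-WT replicate 3 was well above the other wild type pools and Gata6-KO replicate 1 well below the other Gata6-KO pools, without overlap of the groups. The difference was 2.05-fold (interval 1.35 to 3.11; log2 -1.03 ± 0.27 SE, limma adjusted p = 0.038). Nlrp3 was lower in all 19 other fits but kept its call in 9. It was lost when any single array other than Gata6-WT replicate 1 was left out, at adjusted p of 0.11, 0.064 and 0.059 without Gata6-KO replicates 1, 2 and 3 and 0.07 and 0.094 without Gata6-WT replicates 2 and 3.

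**Figure D2:**
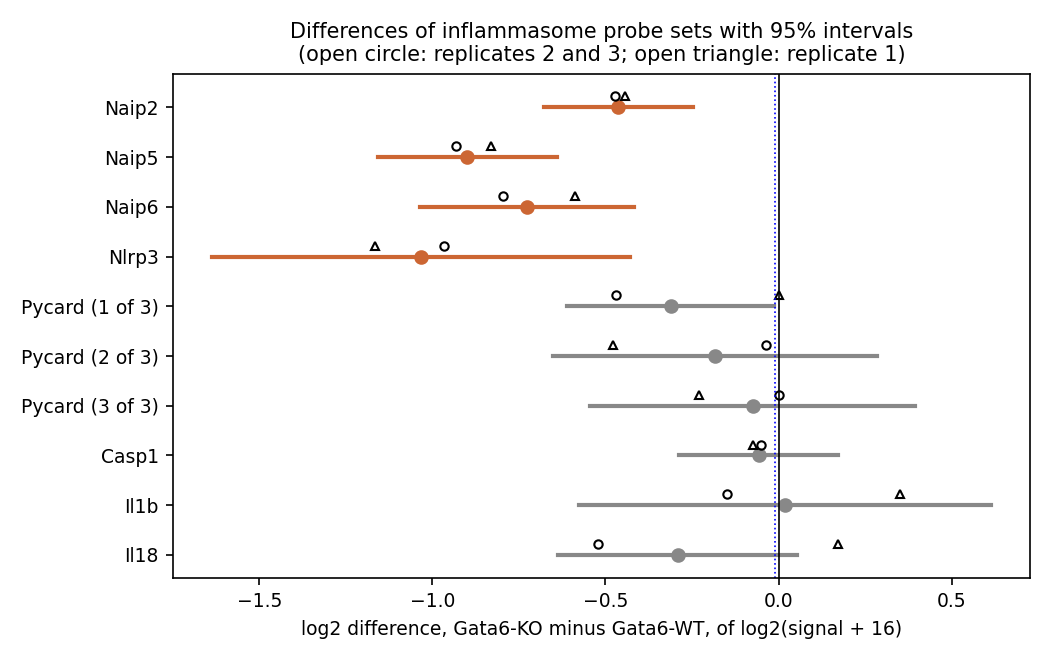
Log2 difference (Gata6-KO minus Gata6-WT, x axis) of each probe set with its 95% interval; orange marks those past the threshold, the blue dotted line the median of all probe sets tested (-0.01), open circles the female-type pools (replicates 2 and 3) and open triangles the male-type pools (replicate 1). The 3 Naip sensors and Nlrp3 lie to the left of 0 in both types, and the intervals of the other probe sets, apart from the brightest of Pycard, include 0.

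Pycard, which encodes the adaptor ASC, was measured by 3 probe sets and none passed the threshold. The brightest was at 14753, 17046 and 20597 in Gata6-WT and 14765, 14331 and 12788 in Gata6-KO. The groups overlapped by a narrow margin, because Gata6-WT replicate 1 lay just below Gata6-KO replicate 1. Its log2 difference was -0.31 ± 0.13 SE (interval -0.61 to -0.01; unadjusted p = 0.043 and limma adjusted p = 0.18), made up of -0.47 in the female-type and 0.00 in the male-type pools. The other probe sets, at mean signals of 454 and 238 in Gata6-WT, had differences of -0.18 (interval -0.65 to 0.28) and -0.07 (interval -0.54 to 0.39).

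Casp1, the protease that all of these sensors activate, had nearly equal signals in the genotypes. They were 3462, 3846 and 3574 in Gata6-WT and 3291, 3600 and 3562 in Gata6-KO. The log2 difference was -0.06 ± 0.10 SE (limma adjusted p = 0.78). Its interval of -0.29 to 0.17 leaves room for a fall of up to 1.22-fold or a rise of up to 1.13-fold, and lies above the Naip5 and Naip6 estimates.

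The cytokine genes did not pass either. Il18, whose product caspase-1 matures, was at 2132, 2406 and 2885 in Gata6-WT and 2403, 1791 and 1870 in Gata6-KO. The 2 female-type Gata6-KO pools were below all wild type pools and the male-type one was inside their range. The difference was -0.29 ± 0.15 SE (interval -0.64 to 0.05; limma adjusted p = 0.28), with -0.52 in the female-type and 0.17 in the male-type pools. The interaction of sex type and genotype had an unadjusted p of 0.035 and a limma adjusted p of 1, and with 1 male-type pool per genotype it shows neither a difference nor its absence.

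Il1b, the IL-1 beta gene, had low signals in these macrophages, of 119, 109 and 107 in Gata6-WT and 157, 87.5 and 105 in Gata6-KO. The array medians were 79.7 to 88.5. The log2 difference was 0.02 ± 0.27 SE (limma adjusted p = 0.98). Its interval of -0.58 to 0.61 leaves room for a change of up to about 1.5-fold either way. The sign of the Il1b difference turned in 4 of the other fits, among them those without Gata6-KO replicate 1 (-0.19) and after median scaling (-0.03).

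Il1b and inflammasome genes are also expressed by other myeloid cells, so markers of these were read on the same arrays. Of 10 neutrophil markers 8 had a probe set and 3 passed the filter. S100a8 (1111 ± 332 to 488 ± 186) and Csf3r (5368 ± 1258 to 2554 ± 519) fell. Ngp was level (89.0 ± 19.6 to 84.0 ± 32.2, log2 -0.11, limma adjusted p = 0.88). S100a9, Cxcr2, Camp and Ltf had mean signals under the filter in both genotypes. The summed neutrophil signal was 2720 to 3710 in Gata6-KO and 5690 to 8510 in Gata6-WT (exact permutation p = 0.1, the smallest that 3 against 3 arrays allow), most of it Csf3r. Of 7 monocyte markers 5 had a probe set, and of the 4 tested Ccr2, Plac8 and Chil3 rose. Ccr2, the receptor that draws monocytes out of the blood, was at 186, 105 and 106 in Gata6-WT and 9632, 2401 and 1740 in Gata6-KO (24.0-fold higher, limma adjusted p = 0.00064). Chil3 went from 253 ± 173 to 1574 ± 1128 (6.21-fold higher, adjusted p = 0.021) and Plac8 from 134 ± 31.2 to 283 ± 74.9 (1.98-fold higher, adjusted p = 0.038). Gata6-KO replicate 1 was the highest array for both Ccr2 and Chil3. The summed monocyte signal was 58300 to 81000 in Gata6-KO and 61900 to 83700 in Gata6-WT (exact permutation p = 0.6), a sum set by Fn1, which did not pass. Without Fn1 it was 2800 to 12800 in Gata6-KO and 383 to 757 in Gata6-WT. Of 6 dendritic cell markers 5 had a probe set and 3 were tested, and Cd209a fell from 658 ± 419 to 117 ± 35.9 (4.50-fold, limma adjusted p = 0.01). Zbtb46 and Itgax, also tested, did not pass (log2 0.24 and 0.13). Flt3 and Xcr1 were under the filter on their mean over all arrays. Xcr1 was at 29.6 ± 23.2 in Gata6-WT and above the filter in Gata6-KO, at 59.7 ± 5.61. The summed dendritic cell signal was 331 to 595 in Gata6-KO and 555 to 1330 in Gata6-WT (exact permutation p = 0.2). Without Cd209a that sum was 230 to 437 in Gata6-KO and 225 to 274 in Gata6-WT, so it was not lower. No tested marker of B cells (3), of T and NK cells (1) or of mast cells and eosinophils (2) passed, and no mesothelial marker was above the filter. The part of these cells in the differences of the Naip genes and Nlrp3 was not tested.

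Of 67 other genes of inflammasomes and the IL-1 family, 53 were tested, and 4 rose and 9 fell, so 40 did not pass. These are 7.55% higher and 17.0% lower, where 5.61% and 7.46% of all genes tested were, so the share of rises was near that of all genes. The same shares of all genes stand behind the counts of the separate lists. The 9 falls include Il18rap, which entered the test through the wild type arrays alone. They became 4 when wild type replicate 1 or 2 was left out and 5 when Gata6-KO replicate 3 was. The median log2 difference of the 53 genes was 0.04, against -0.04 over all genes. Other sensors gave 1 fall among 8 tested: Nod1, a receptor for peptidoglycan fragments, went from 1379 ± 40.1 to 985 ± 76.0 (log2 -0.48, limma adjusted p = 0.03), a call lost whichever array was left out (adjusted p = 0.059 to 0.1). The DNA sensor Aim2, at 340 ± 181 and 259 ± 70.2, and the pyrin gene Mefv, at 95.3 ± 10.3 and 134 ± 24.0, did not pass.

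Among 5 tested genes of pyroptosis execution 2 rose and 1 fell. Casp4, which encodes the mouse sensor of cytosolic lipopolysaccharide caspase-11, was at 1258, 1308 and 962 in Gata6-WT and 339, 753 and 487 in Gata6-KO. This is a 2.29-fold fall without overlap (log2 -1.20 ± 0.26 SE, limma adjusted p = 0.017), but Casp4 missed the threshold with Gata6-KO replicate 3 left out (0.057), as with either of the wild type replicates 1 (0.051) and 2 (0.066) left out. Ninj1, needed for rupture of the plasma membrane of dying cells, rose from 25270 ± 2706 to 41400 ± 1201 at its brightest probe set (log2 0.72, adjusted p = 0.0031), and its other 3 probe sets rose by 1.10 to 1.16. Casp8, a caspase of cell death receptors, rose 1.43-fold (adjusted p = 0.011). The pore gene Gsdmd was at 1652 ± 158 and 1522 ± 84.6 (adjusted p = 0.61).

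Triggers and regulators gave 2 rises and 4 falls among 21 tested. Prkcd is not among them, as its brightest probe set did not pass (log2 -0.19, limma adjusted p = 0.29). Its dimmer probe set did (log2 -0.64, limma adjusted p = 0.025). Serpinb1a, an inhibitor of serine proteases of neutrophil granules, fell from 16600 ± 901 to 3877 ± 699 (4.31-fold, limma adjusted p = 2.7e-05), and its other probe set fell too. The kinase gene Lrrk2 fell from 1117 ± 127 to 279 ± 23.8 (3.83-fold, adjusted p = 6.3e-05). Gbp3 and Gbp2, for interferon-inducible GTPases that coat bacteria, fell by 1.55 and 1.16 on the log2 scale (adjusted p = 0.0027 and 0.023). The Gbp2 call was lost with any array but Gata6-KO replicate 2 left out (0.054 to 0.081), and its second probe set, at -1.13, did not pass. Pstpip1, whose product binds pyrin, rose from 115 ± 18.4 to 420 ± 183 (adjusted p = 0.012), and the potassium channel gene Kcnk6 rose by 0.55. Nek7, P2rx7 and Txnip, known to act upstream of NLRP3, did not pass at any probe set. The kinase gene Nek7 had log2 differences of -0.04, 0.23 and 0.48, the ATP-gated channel gene P2rx7 0.09, 0.33 and 0.58 and Txnip 0.09 and 0.40, each with its brightest probe set first. The dimmer Txnip probe set had all Gata6-KO arrays above all wild type arrays (unadjusted p = 0.015, limma adjusted p = 0.098). Irf8, a transcription factor known to raise Naip and Nlrc4 expression, had log2 0.18 ± 0.16 SE (adjusted p = 0.54).

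In the IL-1 family 8 of 13 genes with a probe set were tested, and 2 fell, Il18bp and Il18rap. Il18bp, the secreted antagonist of IL-18, was at 303, 375 and 394 in Gata6-WT and 25.7, 136 and 102 in Gata6-KO (4.10-fold lower, limma adjusted p = 0.014; 0.052 without Gata6-WT replicate 2). Il18rap, the accessory chain of the IL-18 receptor, was at 284, 211 and 179 in Gata6-WT and 27.9, 25.1 and 102 in Gata6-KO (log2 -1.99, limma adjusted p = 0.014; 0.053 without Gata6-WT replicate 1). Its Gata6-KO mean of log2 values was under the filter level, so it was tested through the wild type arrays alone and had to differ. The antagonist gene Il1rn was at 105 ± 20.1 and 219 ± 67.1, with the Gata6-KO arrays above all wild type arrays, but did not pass (adjusted p = 0.067). Il1r1, the IL-1 receptor gene, was below the filter on its mean, with signals of 155, 81.9 and 134 in Gata6-WT and 12.9, 11.4 and 10.1 in Gata6-KO. In the fit without the filter its difference was -2.31 (limma adjusted p = 0.0088), and its other probe set was at 6.58 and 7.95. Of the 7 genes of all lists below the filter, Il1r1 alone passed in that fit. The others had limma adjusted p of 0.41 to 0.97. In receptor signalling 1 of 11 genes changed: Irak1, a kinase below the IL-1 receptor, fell by 0.69 at its brightest probe set (adjusted p = 0.02). Irak1 missed the threshold when Gata6-KO replicate 1 (0.062) or 3 (0.073) was dropped, and likewise for wild type replicate 1 (0.053) or 2 (0.055). Its 3 other probe sets, at -0.47, -0.27 and -0.06, did not pass, and Myd88 was level at 0.01.

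**Figure D3:**
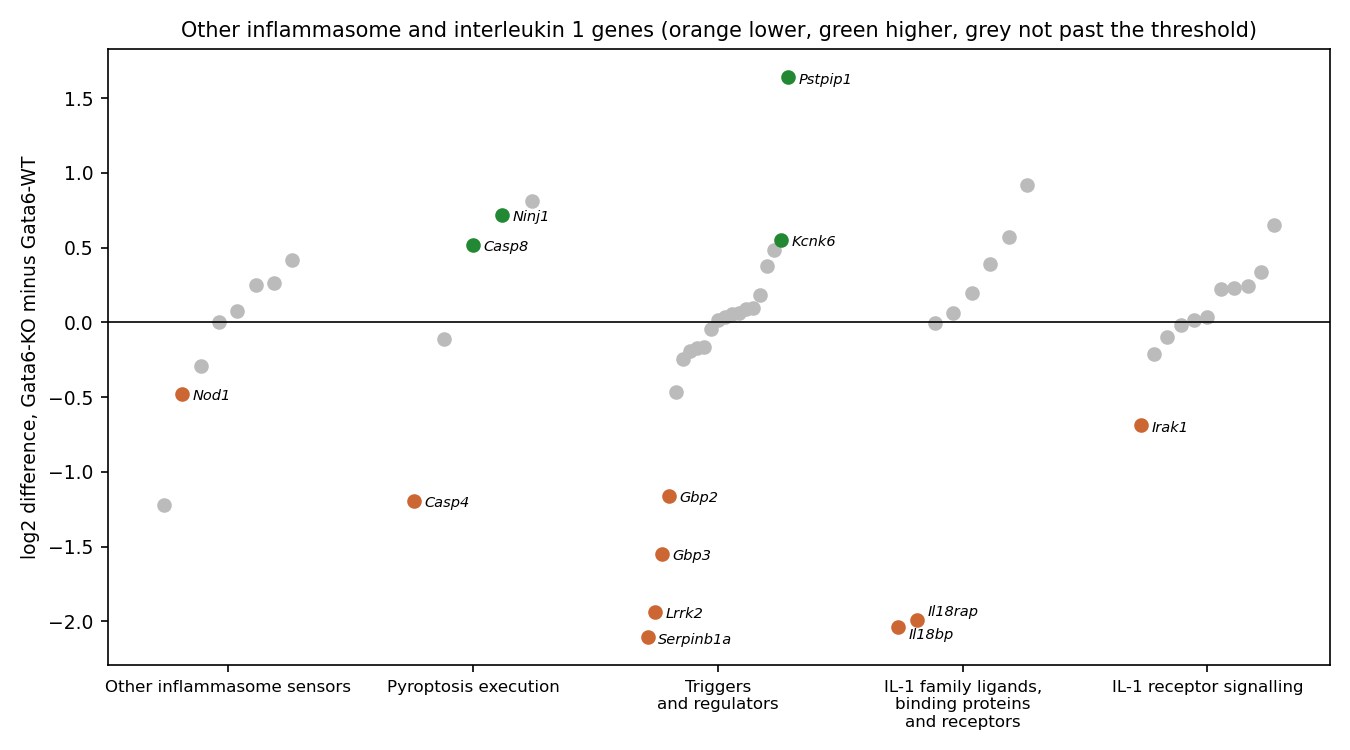
Log2 difference (Gata6-KO minus Gata6-WT, y axis) of the 53 other inflammasome and IL-1 genes tested, 1 probe set a gene, in 5 lists; orange genes fell, green genes rose and grey ones did not pass. Values run from Serpinb1a at -2.11 to Pstpip1 at 1.64, both in the list of triggers and regulators.

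The Naip genes were also read in their place on the chromosome, with 3 protein-coding genes on either side in the order of the GRCm38.p6 gene table. This was added after the values had been seen. On the Naip2 side neither Smn1, for a protein of RNA splicing complexes, nor Bdp1 passed, and Serf1 rose at 1 of 3 tested probe sets (log2 1.28, limma adjusted p = 0.012; 0.43 and 0.42 at the others). On the Naip1 side Gtf2h2 had no probe set under its name. Beyond it the tight junction gene Ocln fell by 4.43 and 3.10 at its 2 probe sets (log2; limma adjusted p = 7.5e-05 and 0.00029), and Marveld2, which encodes another protein of cell junctions, was at 102 ± 15.8 in Gata6-WT and 31.2 ± 0.814 in Gata6-KO (log2 -1.32, limma adjusted p = 0.025). All Gata6-KO signals of Marveld2 were under the filter level of 47.5, so it entered the test through the wild type arrays alone and had to differ.

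**Figure D4:**
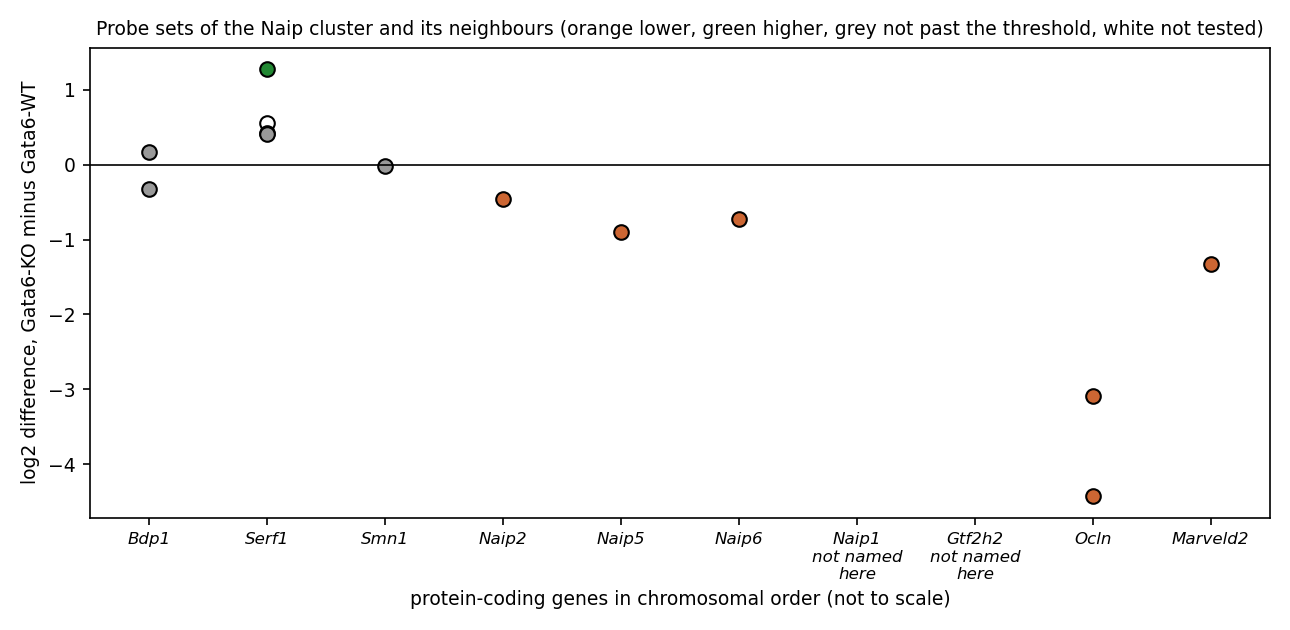
Log2 difference (Gata6-KO minus Gata6-WT, y axis) of each probe set of the 4 Naip genes and of 3 protein-coding genes on either side, in chromosomal order (not to scale). Naip1 and Gtf2h2 had no probe set under their names and so have no point. Points from Bdp1 to Smn1 run from -0.32 (the dimmer Bdp1 probe set) to 1.28 (Serf1), and all points from Naip2 to Marveld2 lie below 0, lowest for Ocln.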

How the data were processed

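The authors deposited linear intensities, 1 signal per probe set and array; they were made with MAS5 and affy per the submitters' processing notes, versions not given. The mean without the highest and lowest 2% was 500 on each array. The values carry no genome build. MAS5 subtracts mismatch signal, which leaves low intensities noisy, and the number of arrays limits precision.

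Signals were taken as log2(signal + 16). The 64 control probe sets were dropped, and 27022 with a mean above the 40th percentile (a signal of 47.5) entered limma 3.58.1 (R 4.3.3; eBayes with trend, two-sided), a step tested on simulated data. A gene was represented by its brightest tested probe set. Symbols were matched by gene identifier (122 of 122 list entries). Members, lists and tests were chosen with earlier results of these data known. Named are all member probe sets and, per list, up to 4 changed genes with the largest change, plus other list members with their value. Variations were pseudocounts, filters, scalings, trend, array weights, a replicate block, a sex term, female-type arrays, a stricter threshold, and each array left out.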

Additional observations from a re-analysis of the deposited data

How the results depend on the processing

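Member probe sets called lower, 4 as reported, were 1 without the mean-variance trend, 2 in the female-type arrays, 2 at an adjusted p under 0.01 and 2 to 4 with 1 array left out (2 when it was replicate 2 of either genotype). Member genes gave the same numbers (1, 2, 2 and 2 to 4), and 0 rose in any fit. Naip5 was the 1 member called in every fit. For all probe sets the lower calls, 1532, became 804, 867 and 669 under those 3 settings and 939 to 1236 with 1 array left out, and the higher calls, 1384, became 655, 787 and 582 and 822 to 1240. Scaling moved the balance, to 1707 lower and 1112 higher after median scaling and to 1256 and 1638 after median scaling over tested probe sets. Pathway genes called lower, 9, became 4, 4 and 3, and 4 to 8 with 1 array left out, while those called higher, 4, became 1, 2 and 1. For the Gata6 probe set with the highest signal, log2 -0.88, the call was lost without the trend and at the stricter threshold. The intermediate Gata6 probe set, at -0.01, turned to 0.075 with array weights and 0.045 after median scaling over tested probe sets, a setting chosen after seeing the data, and ran from -0.17 to 0.18 with 1 array left out. Differences near 0 also turned sign for Il1b (-0.027 after median scaling, -0.15 in the female-type arrays, -0.19 to 0.18 with 1 array left out) and for the dimmer Pycard probe sets (0.0026 in the female-type arrays for the dimmest; -0.34 to 0.012 and -0.24 to 0.078 with 1 array left out). The cause of these shifts was not tested. Over 13 pathway genes called, 4 kept the call in all 19 other fits and 0 changed direction. The first fit did not pair the pools by replicate number. Deviations of same-numbered pools had correlations of 0.128, 0.0743 and 0.0741, each the highest for its array. Those of differently numbered pools ran from -0.0727 to -0.00854. Both male-type pools were numbered 1, and whether the numbers stand for paired pools was not settled. With a replicate block the 4 member calls and 0 rises stood unchanged in number, with 1576 lower and 1500 higher calls over all probe sets. For Nlrp3 the limma adjusted p was 0.0091 with the block and 0.038 without it. The block ended no call of a member, Gata6 or pathway gene, and other named genes were not checked with it. Low MAS5 signals limit what can be said of Il1b, Il1r1 and Il18rap.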
